A study of Mus musculus with 9 samples.

Results

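The Oas family holds the 2′-5′ oligoadenylate synthetases and their relatives, and 8 of its genes are described here, Oas1a, Oas1b, Oas1c, Oas1g, Oas2, Oas3, Oasl1 and Oasl2. Every non-control probe that carried one of these gene names on the array was taken, which gave 10 probes of 41174, and 8 of the 27962 distinct gene names. Oas2 and Oas3 had 2 probes each and the other 6 genes had 1. The genes were chosen from the comparison of hNAG-1 with WT mice, because the probes of Oas3 did not give the same answer, so that comparison is given below as a description, and counts of these genes past a threshold are not a test of them.

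RNA came from mammary gland number 4 of dams on lactation day 2 after their 4th litter. The WT group (4 dams, WT 1 to WT 4) and the hNAG-1 group (5 dams, hNAG-1 1 to hNAG-1 5) were littermates of the strain labeled C57BL/7, untreated, and their age in weeks at collection was not given in the sources used here. The hNAG-1 dams carried a transgene for human NAG-1, also known as GDF15, which was made to be expressed in all tissues, and 2 transgenic lines were kept by the study without a label that says which line an array came from. Each dam gave 1 Cy3-labeled sample on 1 Agilent whole mouse genome array, so the spread given below is between animals, and precision is limited by how many arrays there are.

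The OAS enzymes bind double-stranded RNA and then join ATP into short 2′-5′ linked chains, a second messenger that leads to the cutting of viral and cellular RNA. Most members of the family are interferon-stimulated genes, read at a low level in resting cells and raised when type I or type III interferon signals to a promoter element named the ISRE. Oasl1 and Oasl2 carry ubiquitin-like domains, and Oasl1 makes no 2′-5′ chains. In the lactating mammary gland most RNA comes from secretory epithelium, with adipocytes, vessels and immune cells beside it.

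Probe A_51_P472867 of Oas3 and both probes of Oas2 are shown first, since these genes are compared probe by probe. The sequences are those of the array's scanner output, read 5′ to 3′, and the coordinates are those of the array design on mouse build mm7. Both Oas3 probes lie on chromosome 5 on the minus strand with 3309 bases between them, and A_52_P516296 lies nearer the start of the gene than A_51_P472867. Both Oas2 probes lie on the same strand with 4503 bases between them. For the A_51 probes the first 30 of 60 bases are printed, in lower case because no part is singled out.

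Oas3 A_51_P472867, chr5:119987575-119987634: actagacaccctaggaaccagacatctcta
Oas2 A_52_P587071, chr5:119968974-119969033: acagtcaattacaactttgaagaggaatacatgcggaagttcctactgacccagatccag
Oas2 A_51_P277994, chr5:119964411-119964470: ttccaggaatctttactgataaacatccca

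The probes were compared with each other only, not with the transcripts of the family, so sequence that a probe shares with another Oas gene was not examined. The longest run of bases that the Oas3 probes have in common with any other Oas family probe on the array was 8 for A_52_P516296 and 7 for A_51_P472867, and over all 10 probes it was 7 to 10 bases. Whether a probe lies in coding sequence or in a UTR was not established, because no transcript sequence was used here. All 8 genes lie on chromosome 5 in the array design.

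Intensity was scaled so that the 75th percentile was the same on each array, and all values below are on that scale unless they are named as log2 fold changes. Of the 10 probes, 6 were well above background on all 9 arrays by the scanner software's own call, 3 on some arrays and 1, that of Oas1g, on none. On each array the weakest signal that still passed this call was between 14.4 and 31.7. Features well above background made up 59.8% to 76.1% of an array, and the lowest shares were those of hNAG-1 4 and hNAG-1 2 (60.3%). Of 3 slides, the first carried WT 1 alone, the second carried hNAG-1 1 to hNAG-1 4, and the third carried WT 2 to WT 4 beside hNAG-1 5, so that both genotypes met on slide 3 alone. No feature of these probes was saturated or flagged as an outlier.

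Of the 10 probes, 7 had a higher mean log2 intensity in hNAG-1 than in WT and 3 had a lower one, and the median log2 fold change was 0.81 against -0.02 over all probes, while scaling to the array median put 9 of 10 probes higher and left Oas3 A_51_P472867 at -0.09. That scaling moved the median of all probes to 0.20, and leaving out the scaling moved it to -0.16. By limma, 3 of the 10 probes had an unadjusted p under 0.05, those of Oas1a, Oas3 (A_52_P516296) and Oasl1, all higher in hNAG-1. Over the array 5.6% of probes had such a p in either direction and 1.15% in the higher direction. None of the 10 passed after adjustment, where 0.00243% of all probes did, and the methods' test gave 2 of 10 at the same unadjusted threshold. No member probe had all hNAG-1 dams above all WT dams, as 0.658% of all probes did. Since the genes were chosen from this contrast, these counts describe them and support nothing further.

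**Figure D1:**
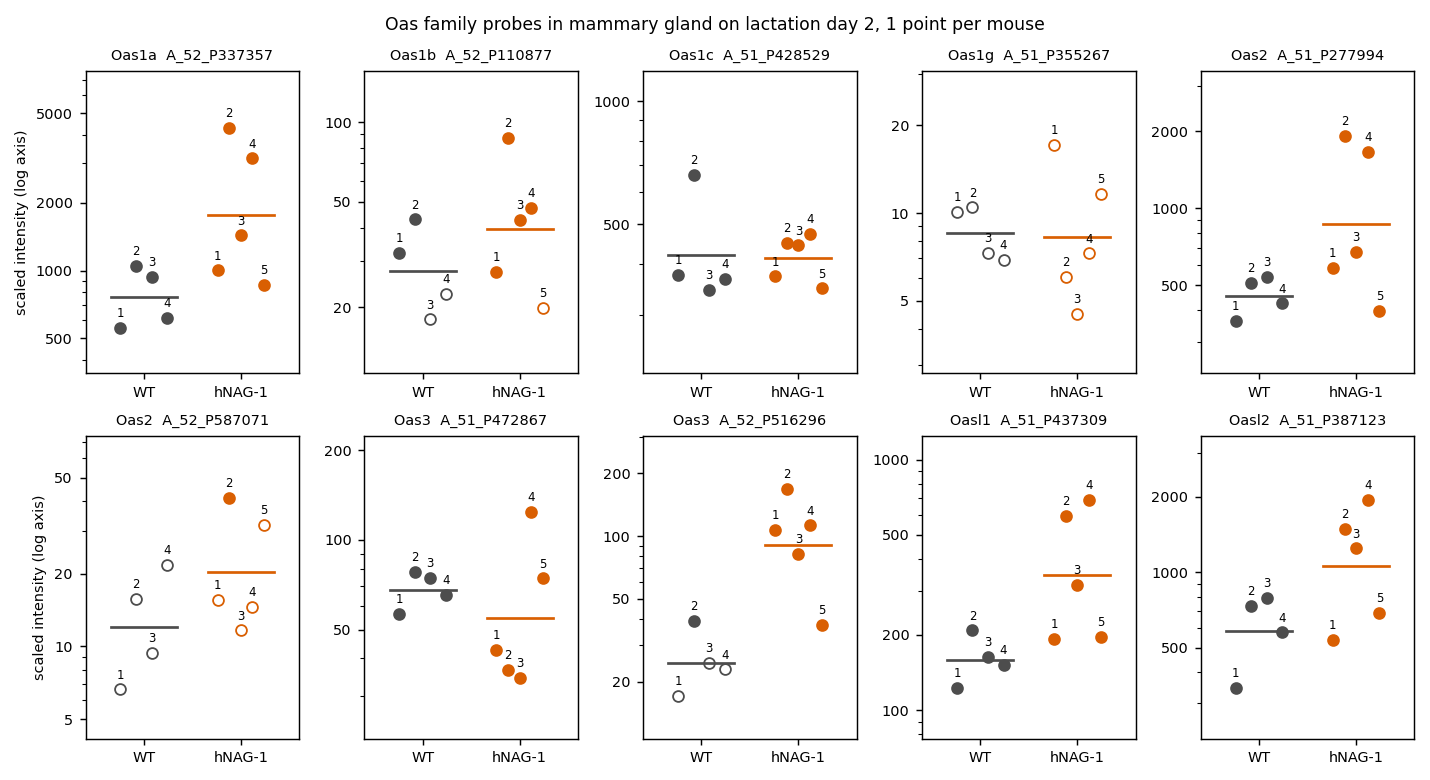
Scaled intensity (log axis, a different range in each panel) of the 10 Oas family probes in 4 WT and 5 hNAG-1 dams, with 1 numbered point per dam, open where the probe was not well above background and a line at the geometric mean of each group. In the panels of Oas1a, Oas2 A_51_P277994, Oasl1 and Oasl2 the dams hNAG-1 2 and hNAG-1 4 stand above all others, while hNAG-1 1 and hNAG-1 5 lie near or among the WT dams.

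Oas1a encodes one of the active synthetases of the mouse Oas1 cluster. Its probe read 558, 1052, 935 and 615 in WT 1 to WT 4. It read 1002, 4298, 1432, 3150.5 and 865 in hNAG-1 1 to hNAG-1 5. The group means were 789.9 ± 241 (SD, n = 4) and 2149.5 ± 1508 (SD, n = 5), and on the log2 scale they differed by 1.21, with 0.49 as the standard error (SE) of that fold change. The higher hNAG-1 mean came with a wider spread: the hNAG-1 dams covered a 4.97-fold range and the WT dams a 1.89-fold range, 3 hNAG-1 dams were above all WT dams, and hNAG-1 1 and hNAG-1 5 fell within the WT range.

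Oas2 encodes a synthetase built of a pair of OAS units. Its bright probe, A_51_P277994, read 361, 509.9, 538 and 424 in the WT dams and 583, 1917, 676, 1662 and 397 in the hNAG-1 dams. The log2 fold change was 0.94 (SE 0.46). Here 4 hNAG-1 dams exceeded all WT dams, 2 of them by little, while hNAG-1 5 lay below 3 of the 4 WT dams.

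Oasl1 encodes a family member without synthetase activity that is known to hold back the translation of Irf7. Its probe read 123, 208, 163 and 151 in WT and 192, 597, 317, 690.2 and 197 in hNAG-1, with a log2 fold change of 1.13 (SE 0.42). Oasl2, which keeps synthetase activity, read 347, 733, 789 and 576 in WT and 536, 1491, 1246, 1947 and 688 in hNAG-1, with a log2 fold change of 0.86 (SE 0.41). For both genes hNAG-1 4 was the highest dam and hNAG-1 2 the next, hNAG-1 3 was also above all WT dams, and the remaining 2 hNAG-1 dams lay within the WT range.

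These 4 probes moved together from dam to dam. Over 9 dams the 6 pairs among them had a Pearson r of log2 intensity from 0.87 to 0.98 and a Spearman rho from 0.80 to 0.93. After each genotype's mean was taken out, r ran from 0.81 to 0.97. Without the 2 dams farthest from the median of the pair's first gene, in the order given above, it ran from 0.75 to 0.93. The points are whole-gland RNA from single arrays, so they share each array's scaling and each gland's mix of cells. In bulk RNA of this kind, more cells that express a gene and more RNA per cell cannot be told apart.

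The dams hNAG-1 2 and hNAG-1 4 were the highest pair for 4 of the 6 probes that were well above background on all arrays, or 66.7%, a pattern that was seen in the values and is given as a description. Of all 23089 probes detected on all arrays, 4.61% had this pair on top. Relative to the WT mean of log2 values, hNAG-1 2 was 5.64-fold higher and hNAG-1 4 4.13-fold higher for Oas1a, while hNAG-1 1 was 1.31-fold and hNAG-1 5 1.14-fold higher. For Oas1a, Oas2 A_51_P277994, Oasl1 and Oasl2 the dams of slide 2 did not read alike, and hNAG-1 1 on that slide stayed close to the WT dams. For Oas3 A_52_P516296 hNAG-1 1 was 4.34-fold higher than the WT mean. The part of the slide in these values was not tested.

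**Figure D2:**
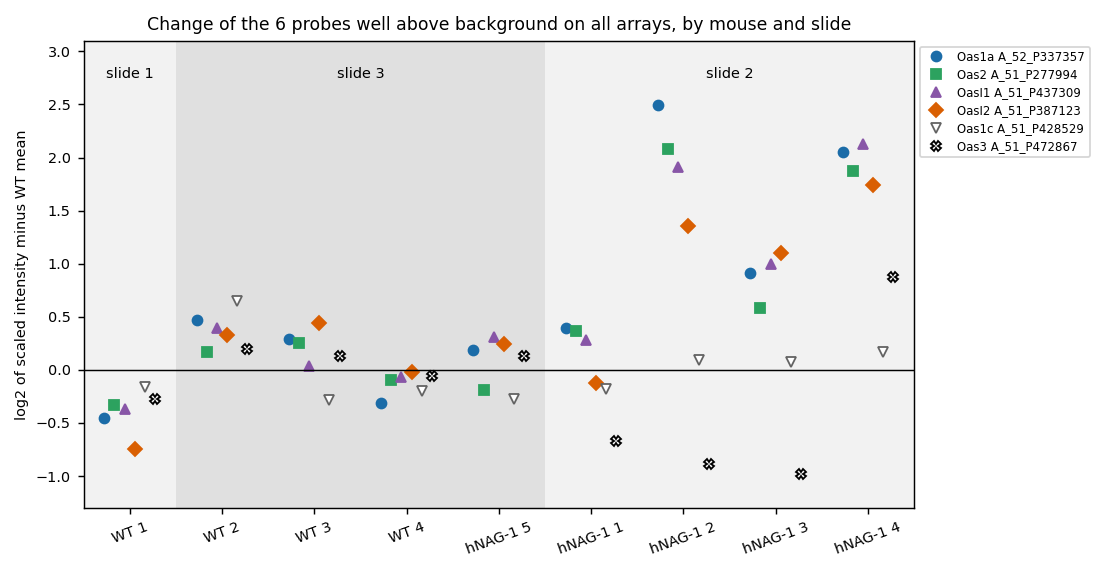
Log2 scaled intensity minus the WT mean (vertical axis) for the 6 Oas family probes well above background on all arrays, with the 9 dams along the horizontal axis grouped and shaded by slide and 1 symbol per probe. Oas1a, Oas2, Oasl1 and Oasl2 are all high in hNAG-1 2 and hNAG-1 4 and sit near 0 in hNAG-1 5 and hNAG-1 1, while Oas1c lies closer to 0, with its highest value in WT 2 (0.65), and Oas3 A_51_P472867 is lowest in hNAG-1 1 to hNAG-1 3.

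On slide 3, where hNAG-1 5 could be set against WT 2 to WT 4, the log2 fold changes of the same probes were 0.03 for Oas1a, -0.30 for Oas2, 0.19 for Oasl1 and -0.01 for Oasl2. Over all 10 probes 6 were higher there, and the median was 0.04 against 0.19 for all probes of the array on that slide. A model with slide as a fixed block gives the same estimates, since no other slide holds both genotypes, and no member probe had an unadjusted p under 0.05 in it, where 7.61% of all probes did. Against the comparison over all dams, 5 of the 10 probes had the other sign there, those of Oas1b, Oas1g, Oas2 A_51_P277994, Oas3 A_51_P472867 and Oasl2. For slides 1 and 2, slide and genotype cannot be told apart. All slide 3 values, here and below, rest on hNAG-1 5 as the only hNAG-1 dam, so they cannot stand for the hNAG-1 group.

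Over all 9 dams Oas1c followed that pattern less closely. This gene, a further paralog of the cluster, read 377, 660.2, 346 and 368 in WT and 373, 450.2, 444, 474 and 349 in hNAG-1, with a log2 fold change of -0.02 (SE 0.22) that became 0.19 with median scaling and without WT 2. WT 2 stood apart, and all 5 hNAG-1 dams lay within the WT range. The hNAG-1 dams covered a 1.36-fold range for this gene, and hNAG-1 4 and hNAG-1 2 were the highest of them. Against Oas1a, Oas2 A_51_P277994, Oasl1 and Oasl2 over the 9 dams, r was 0.34 to 0.41 and rho 0.43 to 0.65. With genotype means taken out r was 0.44 to 0.60. Without hNAG-1 2 and hNAG-1 4, the dams farthest from the median of Oas1a, r with Oas1a was 0.41. Without WT 2 and hNAG-1 4, those farthest for Oas1c, r was 0.76 with Oas2 A_51_P277994, 0.82 with Oasl1 and 0.69 with Oasl2.

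Oas1b is the mouse flavivirus resistance gene, which many laboratory strains carry in a truncated form, and the RefSeq table of assembly GRCm38.p6 lists it as a transcribed pseudogene. Its probe was dim, being well above background in 2 of 4 WT and 4 of 5 hNAG-1 dams. It read 32.0, 43.0, 18.0 and 22.4 in WT and 27.1, 87.1, 42.7, 47.4 and 19.8 in hNAG-1, with a log2 fold change of 0.53 (SE 0.43), and -0.38 on slide 3. The highest dams were again hNAG-1 2 and hNAG-1 4, but 3 of the hNAG-1 dams lay within the WT range.

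Oas1g, an active synthetase close in sequence to Oas1a, gave no signal well above background in any dam. Its probe read 6.92 to 10.5 in WT and 4.50 to 17.1 in hNAG-1, under the lowest signals called above background, so no fold change is given. Only 19 of the probe's 60 bases are placed on the genome by the array design.

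Oas3 encodes the largest synthetase of the family, made of repeated OAS units and known for binding long double-stranded RNA. Its probe A_52_P516296 read 17.0, 39.1, 24.5 and 22.9 in WT, where only WT 2 was well above background. It read 107, 168, 82.3, 113 and 37.5 in hNAG-1, where all 5 dams were above background. The measured log2 fold change was 1.88 (SE 0.42), resting on WT values that were mostly not above background, and was 0.84 with normexp and 0.42 on slide 3, and 4 hNAG-1 dams were above all WT dams while hNAG-1 5 was just under WT 2.

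The other Oas3 probe, A_51_P472867, was well above background on all 9 arrays and went the other way in 3 dams. It read 56.3, 77.9, 74.5 and 65.3 in WT and 42.7, 36.6, 34.4, 124 and 74.3 in hNAG-1. Its log2 fold change was -0.31 (SE 0.37), and it ranged from -0.60 to -0.14 as single dams were left out. It also depended on the processing, at -0.09 with median scaling, -0.05 with quantile normalization, -0.04 with normexp and -0.455 without scaling. On slide 3 it was 0.04. The dams hNAG-1 1, hNAG-1 2 and hNAG-1 3 were below all WT dams, hNAG-1 4 was above them all, and hNAG-1 5 lay within their range.

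Measured from their WT means, the 2 Oas3 probes were furthest apart in the dams of slide 2. Their intensities themselves were closest in hNAG-1 4, also on that slide, at a log2 difference of -0.14. In hNAG-1 2, A_52_P516296 was 2.77 above its WT mean on the log2 scale and A_51_P472867 was 0.89 under its own (-0.89). In hNAG-1 4 both were higher, by 2.19 and 0.87. In hNAG-1 5, on slide 3 with most WT dams, both differed little from WT, by 0.60 and 0.13. Over the 9 dams r between the probes was -0.30 and rho was -0.15. With genotype means taken out r was -0.14, and without the 2 dams farthest from the median of A_51_P472867 it was -0.77. A_52_P516296 had hNAG-1 2 and hNAG-1 4 as its highest dams and varied with Oas1a (r = 0.86, rho = 0.93), Oas2 A_51_P277994 (0.83 and 0.90), Oasl1 (0.85 and 0.88) and Oasl2 (0.73 and 0.68), though 3 of its WT values were not well above background. With genotype means taken out, r was 0.79, 0.80, 0.70 and 0.56 in that order. Without the 2 dams farthest from the median of 1 probe of each pair, it was 0.79, 0.78, 0.78 and 0.49.

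The difference between the Oas3 probes in log2 fold change was 2.19. Among 5825 genes with 2 probes on the array the median difference was 0.20. Counting Oas3 itself, 16 genes, or 0.275%, had one at least as large as that of Oas3. None of the 2920 genes with both probes well above background on all arrays reached it, and all 16 were among the 2905 genes with a dimmer probe. Opposite signs in themselves were common, at 34.9% of the 5825 genes. Oas3 was picked for this disagreement, so its place in that distribution is a description.

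With normexp background correction and an offset of 50, changed together, the log2 fold change of A_52_P516296 was 0.84, that of A_51_P472867 was -0.04, and the difference between them was 0.88. On slide 3 alone it was 0.38. The scanner's own error estimate reached 32.0% of the signal on 1 array for A_52_P516296 and 21.8% for A_51_P472867, and was no more than 10.6% on any array for Oasl1.

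**Figure D3:**
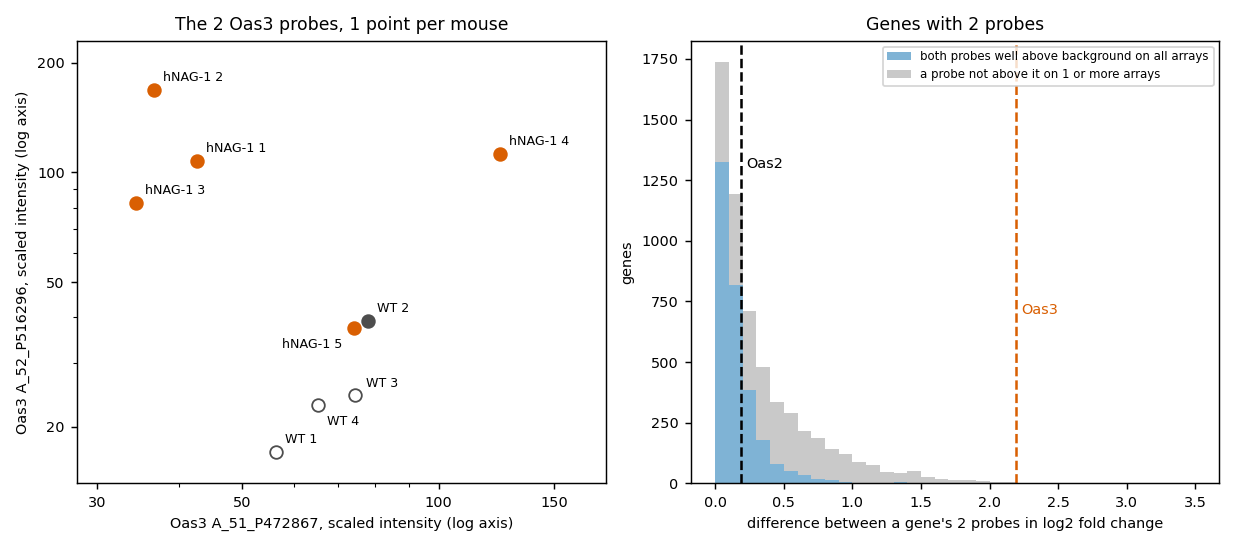
Left, scaled intensity of the 2 Oas3 probes in each dam (both axes log), with WT dams in grey, hNAG-1 dams in orange, and open points where A_52_P516296 was not well above background. Right, the number of genes by the difference between their 2 probes in log2 fold change in steps of 0.1, with dashed lines at 0.19 for Oas2 and 2.19 for Oas3, which lies in the far tail.

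For Oas2 the probes could not be compared in the same way, because 1 of them carried little information. A_52_P587071 read 6.64, 15.7, 9.37 and 21.7 in WT, not well above background in any dam, and 15.5, 41.3, 11.7, 14.6 and 31.9 in hNAG-1, above background in hNAG-1 2 alone. The measured log2 fold change of such a probe has no firm size. It differed from that of A_51_P277994 by 0.19, but on slide 3 these values were 1.11 and -0.30 and with normexp 0.25 and 0.85, so that small difference depended on the setting.

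Beyond the 8 genes, other genes of the OAS and interferon system were taken from lists that were drawn up with earlier results of these data known. The lists named 66 genes, of which 63 had a probe, and the brightest probe stood for a gene. In hNAG-1 44 were higher and 19 lower, 10 of the higher and 1 of the lower had an unadjusted p under 0.05 by limma, beside 1.15% of all probes in the higher direction and 5.6% in either, and none passed after adjustment (lowest adjusted p = 0.661). The count of 11 was 2 on slide 3 alone and 2 with slide as a fixed block. The median log2 fold change was 0.26 against -0.02 for all probes. For the 54 genes detected on all arrays it was 0.20, and on slide 3 it turned to -0.13 against 0.19 for all probes.

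Among relatives of the same family, Oas1f was well above background in all dams and close to Oas1a in pattern. It read 1429, 2607, 2755 and 1698 in WT and 2251, 8849, 3102, 8109 and 2401 in hNAG-1, with a log2 fold change of 1.02 (SE 0.47) and 0.06 on slide 3. Oas1e, the other relative detected in all dams, had -0.06 (SE 0.23). The highest pair of dams for Oas1f was again hNAG-1 2 and hNAG-1 4.

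Among genes that act after the synthetases, Pde12, which breaks the 2′-5′ chains down, had a log2 fold change of 0.12 (SE 0.19) and Abce1, an ATP-binding protein, had 0.31 (SE 0.23), neither with an unadjusted p under 0.05. All 8 genes for double-stranded RNA sensors and effectors had a higher mean in hNAG-1, as 47.9% of all probes did, but 6 of the 8 were lower on slide 3. Over all dams none had an unadjusted p under 0.05 by limma. The highest was Dhx58, which encodes the sensor LGP2, at 0.70 (SE 0.34), with 0.00 on slide 3 to 2 decimals. Tlr3 was the lowest at 0.18 (SE 0.33), with -0.59 on slide 3.

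Upstream, of 9 interferon genes with a probe 4 had a higher and 5 a lower mean in hNAG-1, with 6 higher and 3 lower on slide 3, and 5 were never above background. Among the 3 detected in all dams, Ifna1 was the lowest at -0.72 (SE 0.30), with 0.22 on slide 3 and a range of 65.7 to 84.2 in WT and 32.0 to 87.5 in hNAG-1, and it was the 1 gene of the lists with an unadjusted p under 0.05 in the lower direction. Ifna12, detected in 4 of 5 hNAG-1 dams, had -0.75 (SE 0.34), with -0.03 on slide 3. The highest of the 3 was Ifne, the epithelial interferon epsilon, at 0.02. Of 8 receptor and kinase genes 3 were higher and 5 lower, from -0.13 for Jak1 to 0.15 for Ifnlr1, the interferon lambda receptor.

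Of 9 transcription factors 5 were higher and 4 lower. Irf7, which is itself interferon-stimulated and drives interferon alpha genes, had a log2 fold change of 1.31 (SE 0.47), with 0.04 on slide 3. It read 276, 505, 499.7 and 455 in WT and 614, 2339.9, 908, 1902 and 499 in hNAG-1. Irf8, a factor of myeloid and B cells, was lowest at -0.80 (SE 0.60), and its WT 2 value of 6359 was far above the other dams. Of 4 brakes on the pathway, Usp18, which is interferon-stimulated, had 1.08 (SE 0.48), with -0.19 on slide 3, and Socs3 had -1.18 (SE 0.53), with -1.24.

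Many interferon-stimulated effectors had the same 2 dams on top as Oas1a. Of 18 measured, 17 were higher in hNAG-1, 9 of them with an unadjusted p under 0.05 beside 1.15% of all probes, and their median log2 fold change was 0.56. Isg15, a ubiquitin-like protein, was the highest at 1.32 (SE 0.38), and Psmb9, an immunoproteasome subunit, was the 1 lower gene, at 0.00 to 2 decimals. The dams hNAG-1 2 and hNAG-1 4 were the highest pair for 12 of the 17 effectors detected on all arrays, or 70.6%, and for 21 of 54 genes, or 38.9%, over all lists. On slide 3 the median of those 17 effectors was 0.01, and of all 18 measured 10 were higher and 8 lower.

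**Figure D4:**
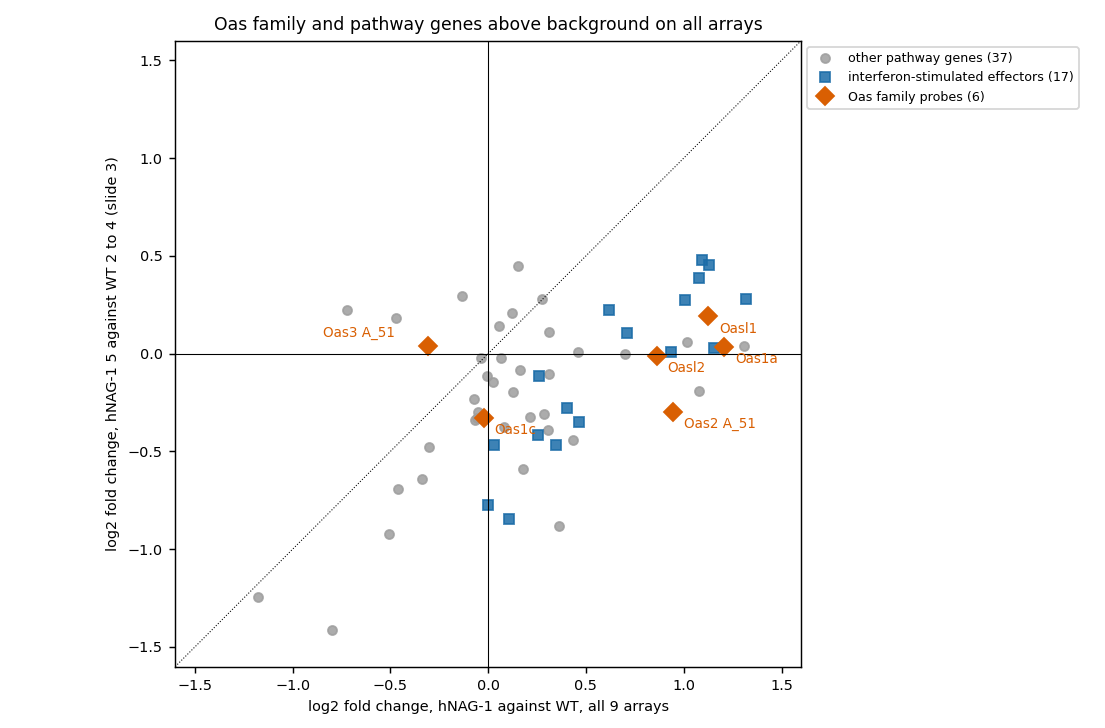
Log2 fold change of hNAG-1 against WT over all 9 arrays (horizontal axis) and of hNAG-1 5 against WT 2 to WT 4 on slide 3 (vertical axis), 1 point per gene or probe well above background on all arrays, with a dotted line where the values are equal. Oas1a, Oas2, Oasl1, Oasl2 and the 9 effectors with an unadjusted p under 0.05 lie far to the right, from 0.62 to 1.32, but between -0.30 and 0.48 on the vertical axis.

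Apart from the 8 genes themselves, whose own correlations are given above, the 5 genes whose log2 intensity followed each member most closely over the 9 dams were named from all probes detected on all arrays. For Oas1a they were Oas1f (r = 0.99), Gbp4 (0.99), Ifit3 (0.98), Irf7 (0.98) and a design entry without a gene symbol, NAP007796-001 (0.98). For Oas2 they were Gbp4, Irf7, Oas1f, NAP007796-001 and Atp6v1a, with r from 0.97 to 0.98. Without the 2 farthest dams r was 0.62 for Atp6v1a, which thus rested largely on those dams, and 0.79 to 0.89 for the other 4. For Oasl1 they were Gbp4, NAP007796-001, Ifit3, Irf7 and Ifit1, with r from 0.98 to 0.99. Gbp4 and Ifit3 are interferon-induced, and the 3 lists shared Gbp4, Irf7 and NAP007796-001.

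Oasl2, Oas1c and Oas3 A_51_P472867 had other neighbors. For Oasl2 they were Trim11 (r = 0.97), Lgals3bp (0.95), Ifit2 (0.95), Scamp2 (0.94) and Rtp4 (0.94). For Oas1c they were BC006779, a probe without a gene name (A_51_P144143), Ubr1, Trim12 and Abi3, with r from 0.96 to 0.98. For Oas3 A_51_P472867 they were LOC667984, Hmox1, Dleu2, LOC545812 and Txndc1, with r from 0.93 to 0.96, and no effector of the lists was among them. With 23089 probes and 9 dams, high values of r are found for many probes, and these are descriptions.

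Promoter sequence was in the RefSeq table (assembly GRCm38.p6) for 6 of the 8 genes, Oas1a, Oas1c, Oas1g, Oas3, Oasl1 and Oasl2, as the 250 bases before and 50 bases after the gene start. The core of the ISRE was searched as GAAANNGAAA on either strand, which is TTTCNNTTTC on the other, with overlapping matches counted. It was found in 4 of the 6, those of Oas1a, Oas1c, Oas1g and Oas3, and in 3.44% of 32851 promoters. The matches are shown so that the element can be set beside the values of these genes, with the matched bases in capitals and each sequence in the direction of its gene, all on the minus strand.

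Oas1a, chr5:120907526-120907565: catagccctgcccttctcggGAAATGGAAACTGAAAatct
Oas1g, chr5:120887614-120887651: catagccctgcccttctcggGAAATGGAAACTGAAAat
Oas1c, chr5:120812599-120812648: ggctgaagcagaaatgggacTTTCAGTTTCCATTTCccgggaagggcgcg
Oas3, chr5:120777705-120777754: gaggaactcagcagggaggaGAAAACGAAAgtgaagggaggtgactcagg

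In Oas1a, Oas1g and Oas1c a pair of overlapping matches formed the same run of 16 bases, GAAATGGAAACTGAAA, which 7 of the 32851 promoters held, and in Oas1c it lay on the other strand and further out. The run began at position -20 before the start in Oas1a, -18 in Oas1g and -114 in Oas1c, and the match in Oas3 began at -75. Of the 3 genes with the same run in their window, Oas1a had the dam-to-dam pattern described above, Oas1c followed Oas1a with r = 0.40 and rho = 0.65, and Oas1g was not measurable. In the Oas1c window the run lay on the plus strand. Oas1b, whose probe is on the plus strand in the array design, had no promoter sequence here, so which gene that run belongs to was not established. Oasl1 and Oasl2, which followed Oas1a over the dams, had no match to these letters in the window.

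Markers of cell types in the gland were set beside these values. All 8 markers of secretory epithelium were well above background on every array, as in a mammary gland, and their summed intensity was 1.22e+06 to 2.21e+06 in WT and 1.59e+06 to 2.28e+06 in hNAG-1. WT 2, 1 of the 3 WT dams on slide 3, was the lowest dam for all 8. All 7 B cell markers and all 7 T cell markers had a lower mean in hNAG-1, and their sums were highest in WT 2, at 27656 for B cells against 644 to 4654 in the other dams and 16655 for T cells against 676 to 2944. WT 2 was not among the 2 highest dams for Oas1a, Oas2, Oasl1 or Oasl2, but it was the highest for Oas1c.

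Other cell type lists went in both directions. All 6 adipocyte markers had a higher mean in hNAG-1 (median log2 fold change 0.47), where WT 1 was lowest for all 6, and 4 of the 6 were higher on slide 3. All 6 endothelial markers had a higher mean too (median 0.23), with 1 of 6 higher on slide 3, and their sum was highest in hNAG-1 2, at 9642, next in hNAG-1 3, at 9446, and 7506 in hNAG-1 4. Of 7 macrophage markers 2 were higher and 5 lower, hNAG-1 4 was the highest dam for 3 of them and WT 1 the lowest for 6, and hNAG-1 2 was the highest for none. Of 5 markers of plasmacytoid dendritic cells, a known source of type I interferon, WT 2 was the highest dam for 4, and neither hNAG-1 2 nor hNAG-1 4 was for any. Their sum was 12473 in WT 2, next 4156 in hNAG-1 4, and 370.4 to 1070.2 in the other hNAG-1 dams. Ly6d made up 91.6% of the sum in WT 2 and 91.9% in hNAG-1 4. For B and T cells too hNAG-1 4 had the highest sums of the hNAG-1 dams, at 4176 against 644 to 1785 and at 2189.7 against 676 to 1109. The part of these cell types in the Oas values was not tested.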

How the data were processed

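Mammary gland RNA of 4 WT and 5 hNAG-1 dams was hybridized to 1-color Agilent arrays. The authors deposited scanner output (Feature Extraction version 9.5.3.1), an intensity per feature with background already subtracted and arrays not scaled to each other.

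Here, non-control features were averaged per probe, divided by the array's 75th percentile, brought back to a common level and taken to log2. The main fit used limma (version 3.58.1, R 4.3.3) with genotype as the one term on all 41174 probes, two-sided, with Benjamini-Hochberg adjustment over all of them. The RefSeq table (GRCm38.p6) matched 22944 probes by accession and was used for names and promoters. Fold changes of probes mostly not well above background are as measured and have no firm size.

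The genes, lists and tests were chosen with earlier results of these data known. All members were named with each probe. Of a list, the genes with the highest and the lowest change among probes detected in all dams were named, and for each member its 5 most correlated genes. Pde12 was named after its value was seen. The values of some items are not reported here.

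The alternatives were another background correction (normexp, offset 50), other scalings (median, quantile, none), a floor of 20 on the signal, no flagged features, no dim probes, eBayes with trend and robust estimation, the methods' test, the slide as a block of fixed or random kind, only slide 3, a replicate block, each dam left out in turn, and for the lists a mean over probes.

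Simulated data of 41174 probes held 200 changed ones. Without adjustment 57%, 86% and 96% of probes changed 1.5-fold, 2-fold and 4-fold were called, and with adjustment 0%, 0% and 73.5%. The simulated noise was independent between arrays, with the same spread in both genotypes and no slide effect. These shares therefore do not cover the slides or the wider hNAG-1 spread of the real arrays.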

Additional observations from a re-analysis of the deposited data

Results flagged for a closer look

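The Oas1c value of WT 2, 660.2 against 346 to 377 in the other WT dams, lay far from its group. The gap to the nearest dam was 0.869 of the group's range on the log2 scale, which is past Dixon's critical value for 4 samples. It was the 1 such value among 17 groups of member probes examined, where chance gives about 1 in 20. WT 2 was also the dam with the highest sums of B cell and T cell markers, and their part in this value was not tested.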

How the results depend on the processing

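The number of member probes higher in hNAG-1, 7 of 10, stayed between 5 and 9 under every alternative run, where the 5 came from a fit that kept 7 member probes. The number with an unadjusted p under 0.05, 3, was 5 with normexp, with median scaling and with trend and robust eBayes, 1 without scaling, and 0 with slide as a fixed block and on slide 3 alone. It ranged from 1 to 5 as single dams were left out, with 1 without WT 1 and 1 without hNAG-1 2, and 5 without hNAG-1 5. The difference between the Oas3 probes, 2.189, was 0.878 with normexp, whose offset of 50 by construction pulls the ratio of dim probes toward 1, and 0.381 with slide as a fixed block and on slide 3 alone, and ranged from 1.822 to 2.619 as dams were left out. The number of list genes with an unadjusted p under 0.05, 11, was 17 with median scaling, 5 without scaling, 2 with slide as a fixed block and 2 on slide 3 alone, and ranged from 7 without WT 1 to 22 without hNAG-1 5. Apart from the block's and the offset's own construction, the cause was not tested. Normexp and its offset were changed together, so their parts cannot be told apart. The replicate block, which drops hNAG-1 5 from the estimate because it has no WT partner, gave 6 member probes and 17 list genes. The replicate numbers did not pair the dams, since the correlations of deviations were 0.33, -0.23, -0.16 and -0.35. Over all probes, the number with an unadjusted p under 0.05, 2307, was 1050 with normexp, 1475 with slide as a random block, 3686 with median scaling, 3134 with slide as a fixed block, 3723 on slide 3 alone and 5447 with the replicate block, and ranged from 1163 to 5924 as dams were left out. After adjustment 138 probes passed with slide as a fixed block and 215 without hNAG-1 5, against 1, and 0 or 1 under the others. Of 217 fold changes of member probes under the alternatives, 15 moved by over 1 SD, 14 of them with slide as a fixed block or on slide 3 alone, where 5 of the 10 probes had the other sign and none was called. For dim probes the signal over background limits what can be said, and this holds for Oas1b, Oas1g, the second Oas2 probe and the WT values of Oas3 A_52_P516296.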
